A study of Mus musculus with 7 samples.

Results

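The transcripts described here encode the alpha and beta subunits of the hypoxia-inducible factors (HIF) and the enzymes and ubiquitin ligase component that couple those subunits to oxygen. They were chosen by symbol as 10 genes: the alpha subunits Hif1a, Epas1 and Hif3a, the beta subunits Arnt and Arnt2, the prolyl hydroxylases Egln1, Egln2 and Egln3, the asparagine hydroxylase Hif1an, and Vhl. All 10 were found among the 26558 named genes of the table, each on a single entry. Of these, 9 reached a mean of at least 1 FPKM (a library's fragment count for a gene, divided by gene length and by library total) over all libraries and were tested, among 13420 tested genes. Hif3a did not.

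The RNA came from kidney endothelial cells of male C57BL/6 mice at 3 months of age. The cells were taken on magnetic beads carrying an antibody against Cd31, and RNA was extracted with no culture step. Both groups carried the Hoxb7-Cre-GFP transgene. The 3 wildtype libraries carried it alone, and the 4 mutant libraries came from Hoxb7-Cre-GFP; Vhlh loxP/loxP mice, in which the floxed gene for the von Hippel-Lindau protein is removed where the Cre is active. The labels describe that deletion as tubule-specific, so the endothelial cells themselves were not its target, and the series asks how they differ beside such tubules. The Hoxb7 promoter is known to act in the ureteric bud and the collecting ducts that grow from it. Nothing in the labels ties a library to its own animal, and p-values therefore reflect library-to-library spread, which may be technical.

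With oxygen present, the Egln enzymes hydroxylate prolines of the HIF alpha subunits, and the von Hippel-Lindau protein then recognises the modified subunit and has it ubiquitinated and degraded. Hif1an hydroxylates an asparagine of the alpha subunit and so blocks its binding to the coactivators Ep300 and Crebbp. When oxygen or the von Hippel-Lindau protein is lacking, the alpha subunit persists, pairs with Arnt and binds DNA at hypoxia response elements. Control thus acts mostly on protein, and what was read here is RNA. In endothelium Epas1 is known as an abundant alpha subunit, and Egln3 and Egln1 are known as HIF target genes that feed back on the pathway.

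FPKM values hold no read totals. From the steps among low values, the relative depth of the libraries lay between 0.71 and 1.0, and 13222 to 13337 genes per library reached 1 FPKM. Markers of endothelium were present in all 7 libraries. The summed FPKM of 25 pan-endothelial genes was 3082 to 4585 in wildtype and 4909 to 5585 in mutant libraries, with 10 of 25 called higher and 0 lower. Pecam1, the gene of the bead antigen, was at 202 to 285 FPKM in wildtype and 310.1 to 385 in mutant libraries. Pecam1 and Cdh5, another gene of that list, were both called higher (limma adjusted p = 0.0379 and 0.0316). Other cell types were also present, and their markers differed between the groups. The sum of 22 macrophage and dendritic cell markers was 8735 to 12362 FPKM in wildtype and 2013 to 3461 in mutant libraries, and 18 of 21 tested members were called lower. The sum of 23 collecting duct and distal tubule markers was 1887 to 2093 FPKM in wildtype and 2243 to 3389 in mutant libraries, with 6 of 23 called higher and 1 lower. Aqp2, a collecting duct marker of that list, went the other way from the sum. It was at 52.0 to 95.4 FPKM in wildtype and 19.9 to 59.1 in mutant libraries. Its log2 fold change of -1.22 was not called (limma adjusted p = 0.0711). The 16 proximal tubule markers summed to 3330 to 6081 and 1608 to 8728 FPKM, with 0 called by limma (0 at an unadjusted p under 0.05). No listed marker of these 4 cell types was at 0 in all libraries. In such isolates fewer cells of a type and less RNA per cell cannot be told apart, and the part of these other cells in the results below was not tested.

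In the mutant isolates Hif1a and Arnt2 rose, and no other tested gene of the 9 was called in either direction. Hif1a was 1.72 times and Arnt2 1.87 times the wildtype mean. Limma on log2(FPKM + 1), with Benjamini-Hochberg adjustment over all 13420 genes and a call at an adjusted p under 0.05, called 8.76% of all tested genes higher and 7.34% lower. The 2 of 9 higher and 0 of 9 lower genes are read against those shares. At an unadjusted p under 0.05 there were 5 of 9 genes, against 32.4% of all tested genes. The groups did not overlap for 4 genes with higher mutant values (Hif1a, Arnt2, Egln1 and Egln3) and for 1 with lower mutant values (Vhl). Over all tested genes the groups did not overlap in 31.4%, made up of 18.9% with higher and 12.5% with lower mutant values. The median log2 fold change was 0.20 for the 9 genes and 0.04 for all tested genes.

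**Figure D1:**
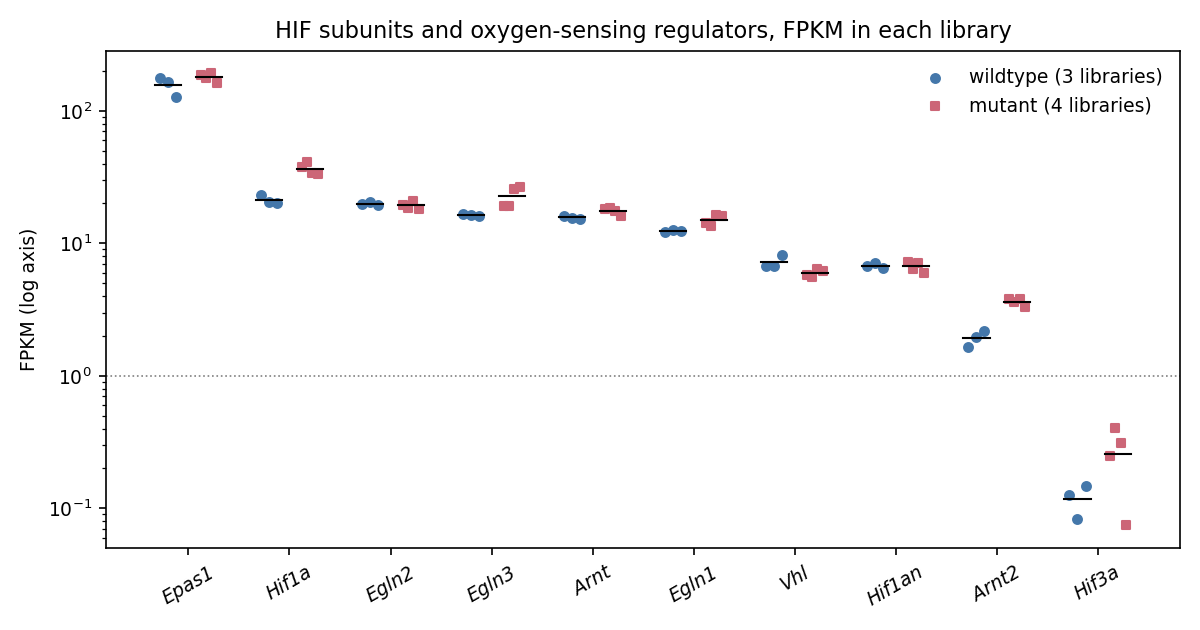
FPKM of the 10 genes in each library on a log axis, ordered by the wildtype mean, with 3 wildtype libraries as circles, 4 mutant libraries as squares and group means as bars. Epas1 lies above all others at 127 to 192 FPKM, the mutant squares of Hif1a and Arnt2 stand clear of the wildtype circles, and Hif3a lies below the dotted line at 1 FPKM.

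The promoters of the genes that rose, and of the hydroxylases whose groups did not overlap, are shown because HIF binds the core letters ACGTG or GCGTG. The windows are from RefSeq (build GRCm38.p6), run from 250 bases before to 50 bases after the annotated start on the gene's own strand, and carry in capitals each match to ACGTG or GCGTG on either strand. Those of Hif1a and Egln1 hold ACGTG, and that of Egln3 does so near its 5′ end, whereas the Arnt2 window has no capitals.
Hif1a, chr12:73907617-73907916, plus strand: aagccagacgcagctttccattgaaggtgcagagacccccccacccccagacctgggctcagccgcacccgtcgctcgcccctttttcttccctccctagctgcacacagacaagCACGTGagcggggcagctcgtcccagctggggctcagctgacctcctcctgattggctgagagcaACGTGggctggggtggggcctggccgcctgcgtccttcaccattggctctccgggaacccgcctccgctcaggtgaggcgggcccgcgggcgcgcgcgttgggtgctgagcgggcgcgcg
Arnt2, chr7:84409989-84410288, minus strand: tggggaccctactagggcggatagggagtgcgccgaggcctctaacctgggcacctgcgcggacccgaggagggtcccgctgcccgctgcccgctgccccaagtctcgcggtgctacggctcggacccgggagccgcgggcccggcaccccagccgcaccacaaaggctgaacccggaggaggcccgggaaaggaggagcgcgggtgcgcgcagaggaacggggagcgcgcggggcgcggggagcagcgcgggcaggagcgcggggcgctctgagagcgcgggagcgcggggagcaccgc
Egln1, chr8:124949205-124949504, minus strand: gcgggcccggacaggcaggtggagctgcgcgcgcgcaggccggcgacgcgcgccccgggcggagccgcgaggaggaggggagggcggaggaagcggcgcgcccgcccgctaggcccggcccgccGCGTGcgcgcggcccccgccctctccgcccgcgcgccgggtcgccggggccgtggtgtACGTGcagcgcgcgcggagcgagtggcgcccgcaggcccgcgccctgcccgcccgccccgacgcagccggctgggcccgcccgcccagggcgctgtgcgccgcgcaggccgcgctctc
Egln3, chr12:54203825-54204124, minus strand: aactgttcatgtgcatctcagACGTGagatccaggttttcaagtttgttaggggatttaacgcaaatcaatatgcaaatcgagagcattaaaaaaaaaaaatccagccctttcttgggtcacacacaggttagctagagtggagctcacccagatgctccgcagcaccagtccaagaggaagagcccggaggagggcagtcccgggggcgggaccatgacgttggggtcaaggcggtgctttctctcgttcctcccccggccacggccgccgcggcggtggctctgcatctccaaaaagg
In the Hif1a window a match on each strand overlaps in a palindrome at -135 to -130 from the start, and a further ACGTG lies at -70 to -66. The Egln1 window holds GCGTG at -126 to -122 and ACGTG at -68 to -64, and the Egln3 window ACGTG at -229 to -225. Windows were found for 9 of the 10 genes, all but Epas1. There were 10 windows in all, and 7 of the 10 hold at least 1 of the motifs. The share over all 32851 RefSeq windows is 43.8%, with 19.6% for ACGTG and 32.4% for GCGTG. Of the windows not shown, those of Egln2 hold 6 and 1 matches, that of Hif3a 2 and that of Arnt 1. Those of Vhl and Hif1an hold none. Egln2 and Arnt were not called, and Hif3a was not tested. A match is a run of letters and not a binding site, and a window without one says nothing on the factor.

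Among the alpha subunits the Hif1a transcript rose while Epas1 was not called. Hif1a, the most widely expressed alpha subunit, was at an FPKM of 23.2, 20.6 and 20.3 in wildtype 1 to 3 and at 37.9, 40.9, 34.2 and 33.6 in mutant 1 to 4. The lowest mutant library, mutant 4, was well above the highest wildtype library, wildtype 1, and the groups did not overlap. The means were 21.4 ± 1.60 (SD, n = 3) and 36.6 ± 3.39 (SD, n = 4), and the log2 fold change was 0.75 (standard error 0.0936, 95% interval 0.53 to 0.97, limma adjusted p = 0.00265). The gene lies on chromosome 12 from 73901375 to 73947530 in GENCODE M21. The RefSeq window shown above, from 73907617 to 73907916, lies inside this span and not at its outer start. The gene shares 330 exon bases with the antisense gene Gm15283 and 148 with Gm49321 on its own strand. Whether reads were counted by strand is not given in the sources used here.

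Epas1, which encodes the HIF-2 alpha subunit, was the most abundant of the genes and exceeded 97.5% of all tested genes in its wildtype level. Its FPKM was 178, 166 and 127 in wildtype 1 to 3 and 187, 177, 192 and 162 in mutant 1 to 4. Wildtype 3 was the lowest of all libraries, and the other 2 wildtype values fell within the mutant range. Limma gave a log2 fold change of 0.20 (95% interval -0.09 to 0.50, adjusted p = 0.311), so a rise of up to 0.50 or a small fall is inside the interval. Wildtype 3 also had the lowest pan-endothelial sum, 3082 FPKM. Without wildtype 3 the Epas1 log2 fold change was 0.06 (limma adjusted p = 0.732). Hif3a, the least studied alpha subunit, several of whose forms restrain the others, was between 0.0743 and 0.403 FPKM in every library. With no filter on low values its log2 fold change was 0.16 (limma adjusted p = 0.296). The 1 added to each FPKM shrinks any change at so low a level. The Hif3a means were 0.119 FPKM in wildtype and 0.258 in mutant libraries, and the groups overlapped.

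Because FPKM is scaled by length, alpha subunits can be set against each other within a library. The ratio of Epas1 to Hif1a FPKM was 7.66, 8.07 and 6.28 in wildtype 1 to 3 and 4.94, 4.34, 5.61 and 4.83 in mutant 1 to 4. Each mutant ratio was below each wildtype ratio. Hif1a accounted for 12.1% ± 1.44 (SD, n = 3) of the summed Hif1a and Epas1 FPKM of wildtype and for 17.0% ± 1.47 (SD, n = 4) of the mutant sum. The difference in the log2 ratio of Epas1 to Hif1a was -0.57, with a two-sided exact permutation p = 0.0286 over 35 splits, the smallest they can give. Adjusted over the 4 ratios compared here it was 0.0571, which misses the threshold. A ratio at the smallest p can pass this adjustment only if most of the 4 ratios reach that p. A miss therefore says little.

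**Figure D2:**
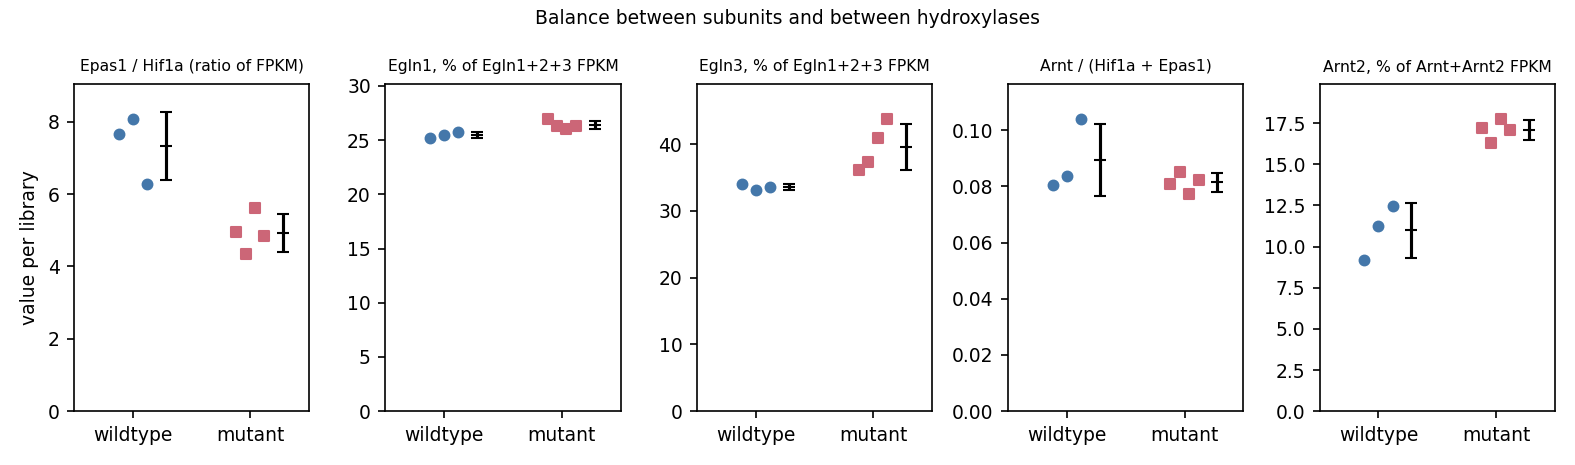
Ratios and shares of FPKM within each library, each axis starting at 0, with wildtype as circles (3), mutant as squares (4) and mean ± SD to the right of each group. The Epas1 to Hif1a ratio lies at 6.28 to 8.07 in wildtype and at 4.34 to 5.61 in mutant libraries, and the Arnt2 share of Arnt plus Arnt2 lies at 9.21 to 12.5% and 16.3 to 17.7%.

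Of the beta subunits, Arnt2 rose from a low level and Arnt was not called. Arnt2, a paralogue of Arnt best known from brain and kidney development, was at 1.64, 1.98 and 2.19 FPKM in wildtype 1 to 3 and at 3.77, 3.62, 3.78 and 3.32 in mutant 1 to 4. All mutant values exceeded all wildtype values, and the mutant libraries lay closer together than the change between groups. The means were 1.94 ± 0.279 (SD, n = 3) and 3.62 ± 0.214 (SD, n = 4), and limma gave a log2 fold change of 0.66 (standard error 0.0931, adjusted p = 0.00408). The added pseudocount of 1 shrinks this value, which was 0.88 with a pseudocount of 0.1. Its level exceeded only 10.4% of tested genes, and it shares 214 exon bases with the antisense gene Gm30873.

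Arnt, the main dimerisation partner of all alpha subunits, was at 16.2, 15.6 and 15.4 FPKM in wildtype and at 18.2, 18.6, 17.5 and 16.1 in mutant libraries. Only mutant 4 reached into the wildtype range. The difference on the log2 scale was 0.15 (95% interval -0.01 to 0.32, limma adjusted p = 0.186). Arnt2 made up 11.0% ± 1.65 (SD, n = 3) of the summed beta subunit FPKM of wildtype and 17.1% ± 0.612 (SD, n = 4) of the mutant sum. The ratio of Arnt to the sum of Hif1a and Epas1 was 0.0893 ± 0.0128 (SD, n = 3) for wildtype and 0.0814 ± 0.00322 (SD, n = 4) for mutant, with overlapping groups (two-sided exact permutation p = 0.286, also 0.286 adjusted over the 4 ratios). Wildtype 3, at 0.104, was the highest library, and without it the difference in the log2 ratio moved from -0.13 to -0.011.

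Of the 3 prolyl hydroxylases, Egln3 and Egln1 had higher values in every mutant library without being called, and Egln2 stayed within overlapping ranges. Egln3, the strongly hypoxia-inducible member, was at 16.5, 16.3 and 16.0 FPKM in wildtype 1 to 3 and at 19.2, 19.2, 25.8 and 26.6 in mutant 1 to 4. The wildtype libraries lay close together, and mutant 3 and mutant 4 stood above mutant 1 and mutant 2. Its log2 fold change of 0.44 (standard error 0.132, 95% interval 0.13 to 0.75) was not called by limma (adjusted p = 0.0615). It was called without mutant 2 (limma adjusted p = 0.0483) and with array weights (0.0371), and over its 19 other settings the adjusted p ran from 0.0371 to 0.764.

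Egln1, the main oxygen sensor among the hydroxylases, was at 12.2, 12.6 and 12.3 FPKM in wildtype 1 to 3 and at 14.3, 13.5, 16.4 and 16.0 in mutant 1 to 4. As for Egln3, mutant 3 and mutant 4 held the higher values. On the log2 scale the change was 0.26 (95% interval 0.06 to 0.45, limma adjusted p = 0.0758). Egln2, a hydroxylase not known to be induced by hypoxia, was at 19.5 to 20.5 FPKM in wildtype and at 18.2 to 20.9 in mutant libraries. Its change was -0.04 on the log2 scale (95% interval -0.21 to 0.12, limma adjusted p = 0.72).

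Among the hydroxylase transcripts Egln2 had the highest mean FPKM in wildtype and Egln3 in mutant libraries. Egln3 formed 34.0, 33.1 and 33.5% of the summed Egln1, Egln2 and Egln3 FPKM in wildtype 1 to 3 and 36.2, 37.4, 40.9 and 43.7% in mutant 1 to 4. The two-sided exact permutation p was 0.0571, and 0.0762 adjusted over the 4 ratios. The Egln1 share was 25.5% ± 0.312 (SD, n = 3) and 26.4% ± 0.384 (SD, n = 4), with a two-sided exact permutation p = 0.0286, the smallest possible, and 0.0571 after adjustment. Neither share passed the threshold, although the groups did not overlap for either. The limit of this adjustment given for the Epas1 to Hif1a ratio holds here too.

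Hif1an and Vhl, the other oxygen-dependent brake and the ubiquitin ligase component, were not called. Hif1an was at 6.73, 7.09 and 6.48 FPKM in wildtype and at 7.26, 6.38, 7.15 and 5.99 in mutant libraries. Limma put its log2 change at -0.02 (95% interval -0.21 to 0.18, adjusted p = 0.919). Vhl was at 6.78, 6.71 and 8.24 FPKM in wildtype 1 to 3 and at 5.79, 5.57, 6.41 and 6.23 in mutant 1 to 4. The closest pair, wildtype 2 at 6.71 and mutant 3 at 6.41, differed by less than the spread within either group. Its log2 change was -0.23 (95% interval -0.44 to -0.02, limma adjusted p = 0.123), and without wildtype 3 it was -0.15 (0.318). Reads from tubule cells, in which the deletion was made, and from endothelial cells are not separated in these values, so the Vhl level is no test of the deletion.

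**Figure D3:**
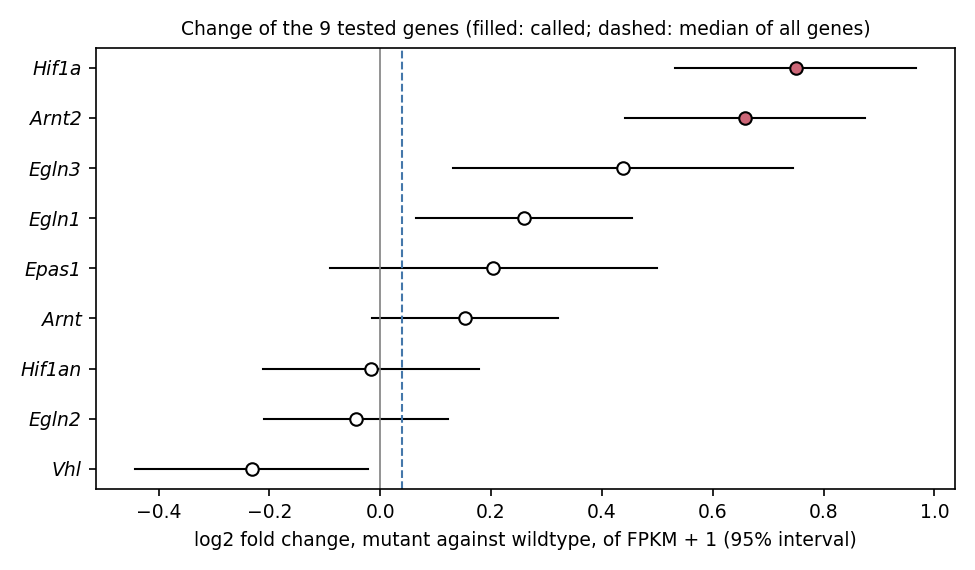
Log2 fold change of FPKM + 1, mutant against wildtype, of the 9 tested genes with 95% intervals from limma. Filled points, Hif1a at 0.75 and Arnt2 at 0.66, were called after adjustment over all tested genes, and the dashed line marks the median of all tested genes at 0.04.

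Ranked by wildtype mean FPKM, the order of levels was Epas1 at 157, Hif1a at 21.4, Egln2 at 19.9, Egln3 at 16.3, Arnt at 15.7, Egln1 at 12.4, Vhl at 7.24, Hif1an at 6.77, Arnt2 at 1.94 and Hif3a at 0.119. The ranges of neighbours overlapped for Hif1a with Egln2, Egln3 with Arnt, and Vhl with Hif1an. In the mutant libraries Hif1a stood clear of the hydroxylases. Egln3 at a mean of 22.7, Egln2 at 19.3, Arnt at 17.6 and Egln1 at 15.1 each overlapped the next in range, as did Hif1an and Vhl.

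The calls on Hif1a and Arnt2 depended on scaling to endothelial RNA. The libraries were as deposited in the values above. After scaling each library on the mean level of the pan-endothelial markers, which moved the median log2 fold change of all genes from 0.04 to -0.30, Hif1a was at 0.37 (limma adjusted p = 0.0721) and Arnt2 at 0.37 (0.104). Relative to the median gene the change was then 0.67 for both, against 0.71 for Hif1a and 0.62 for Arnt2 as deposited. Vhl, at -0.58 (0.0333), and Egln2, at -0.42 (0.0475), were called lower in that setting, and their distances from the median gene were -0.28 and -0.12. Epas1, Arnt and Egln1 changed sign to -0.19, -0.22 and -0.11. The Hif1a call held in the other 18 alternatives and the Arnt2 call in the other 17, including the removal of each library.

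**Figure D4:**
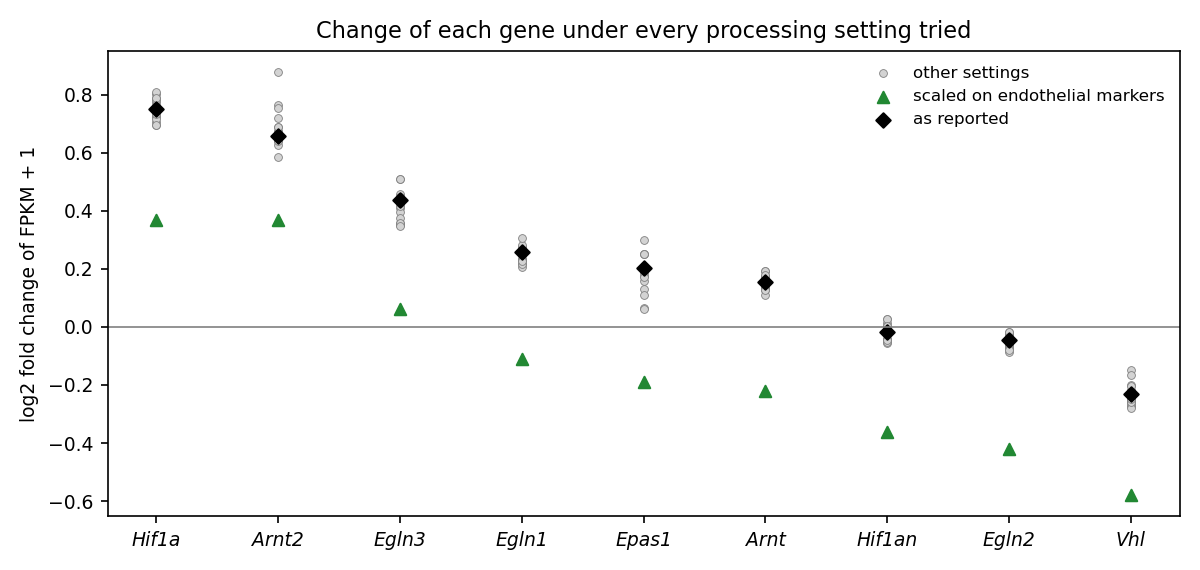
Log2 fold change of FPKM + 1 for the 9 tested genes as reported (diamonds), after scaling on pan-endothelial markers (triangles) and under the other settings (grey circles). The triangles sit below the rest for each gene, at 0.37 for Hif1a and Arnt2 and at -0.58 for Vhl.

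In the other genes of the pathway, described as counts for 5 lists, most calls fell among HIF target genes. Of 34 tested HIF target genes 13 rose and 1 fell. Their median log2 change was 0.51, beside 8.76% and 7.34% of all tested genes and their median of 0.04. Bnip3, a mitophagy receptor, rose in every mutant library to 38.9 to 49.1 FPKM from 18.6 to 23.6, a log2 fold change of 1.05 (limma adjusted p = 0.00157). Ero1l, an oxidase of the endoplasmic reticulum, had a log2 fold change of 0.71 (0.00146) and Plod2, a collagen lysyl hydroxylase, of 0.75 (0.00205), and both calls were lost after scaling on endothelial markers (limma adjusted p = 0.0812 and 0.0533). Vegfa, Slc2a1, Pdk1, Adm, Ankrd37, Pgk1, Ldha, Ddit4, Higd1a and Stc2 made up the other rises, and Cxcr4, a chemokine receptor also carried by leukocytes, fell. Mutant 3 held the highest value of the 4 mutants for 10 of the 13 raised genes and also the highest collecting duct and distal tubule sum, 3389 FPKM. Mutant 2, with the lowest such sum of the mutants, 2243 FPKM, held the highest value for 0 of the 13 and the lowest for 2. Mutant 1 (2632 FPKM) held the highest for 1 and the lowest for 5. Mutant 4 (2579 FPKM) held the highest for 2 and the lowest for 6. A link between this sum and the target genes was not tested. Without wildtype 2 or wildtype 3 the higher count was 8 and the lower 0. The higher count was also 8 without wildtype 3 and mutant 4 together and 3 after scaling on endothelial markers. Flt1, Kdr and Tek are both on this target list and among the endothelial markers used for that scaling. Leaving out wildtype 2 or wildtype 3 ended the calls of Slc2a1, Pdk1, Ankrd37, Stc2 and Cxcr4. The Vegfa call ended without wildtype 2, that of Ddit4 without wildtype 3, those of Pdk1 and Ankrd37 also without wildtype 1 or mutant 1, and that of Ankrd37 also without mutant 4.

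The counts in the ligase, coactivator, dioxygenase and bHLH-PAS lists stand beside 8.76% of all tested genes called higher, 7.34% called lower and 32.4% at an unadjusted p under 0.05. Of 26 tested genes of the von Hippel-Lindau ligase and of HIF turnover 2 rose and 0 fell (6 at an unadjusted p under 0.05), with a median of 0.12. Tceb1, which encodes elongin C, the adaptor that holds the von Hippel-Lindau protein in its ligase, rose from 24.1 ± 2.38 (SD, n = 3) to 34.2 ± 1.26 FPKM (SD, n = 4; limma adjusted p = 0.00804). That call was lost after scaling on endothelial markers (log2 fold change 0.11, limma adjusted p = 0.485) and without wildtype 3 and mutant 4 together (0.0621). It was also lost with replicate number as a block (limma adjusted p = 0.0684). Siah1a, a ligase known to act on the prolyl hydroxylases, was at 0.30 and not called (0.0562), but was called without wildtype 1 (0.0346), and it changed sign to -0.063 after scaling on endothelial markers.

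Among 22 tested coactivators and partners 1 rose and 1 fell (7 at an unadjusted p under 0.05), with a median of -0.06. Cited2, which competes with the alpha subunits for Ep300 and Crebbp and so restrains HIF, was at 59.5, 58.5 and 50.8 FPKM in wildtype 1 to 3 and at 23.1, 29.0, 21.8 and 26.6 in mutant 1 to 4. The highest mutant value was well under the lowest wildtype value. Its log2 change was -1.14 (standard error 0.114, limma adjusted p = 0.00138), and Cited2 was called lower under all settings tried. Pkm2, the symbol used for pyruvate kinase M, rose by 0.54 (0.0107). The Pkm2 call was lost after rescaling to the same total (limma adjusted p = 0.0566), after scaling on endothelial markers (log2 fold change 0.14, 0.441) and without wildtype 3 and mutant 4 together (0.0743). It was also lost with replicate number as a block (limma adjusted p = 0.0807). Sirt1, a deacetylase, was at 0.40 and not called (0.0707), but was called without mutant 3 (0.00975).

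Of 25 tested other oxygen-dependent dioxygenases 0 rose and 1 fell (6 at an unadjusted p under 0.05), with a median of 0.001. The fall was that of Kdm2b, a histone demethylase, from 9.54 ± 1.19 (SD, n = 3) to 6.19 ± 0.252 FPKM (SD, n = 4; limma adjusted p = 0.00733). That call was lost without wildtype 3 and mutant 4 together (limma adjusted p = 0.0558) and with replicate number as a block (0.0574). Kdm3a, a demethylase known as a HIF target, was at 0.23 and not called (0.08), nor was Jmjd6 at 0.33 (0.0543), which was called without mutant 3 (0.023). Both changed sign after scaling on endothelial markers. Of 8 tested other bHLH-PAS factors, the family to which the HIF subunits belong, limma called 0 in either direction, with 1 at an unadjusted p under 0.05 and a median of 0.17. Per2 was at 0.59 (0.12), Per3 at 0.43 (0.256) and Clock at 0.15 (0.244), and Per2 was called higher without mutant 4 (0.00759).

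**Figure D5:**
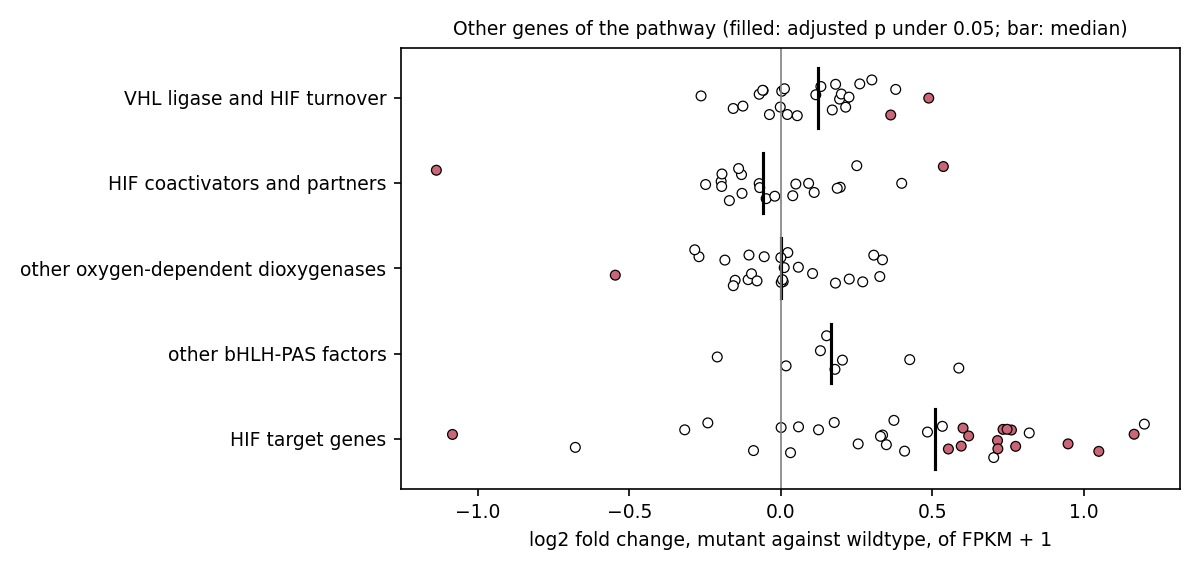
Log2 fold change of FPKM + 1, mutant against wildtype, of each tested gene in 5 lists, with called genes filled and list medians as bars. The HIF target genes have a median of 0.51, and the other 4 lists lie between -0.06 and 0.17, with Cited2 as the leftmost point of the coactivators at -1.14.

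Genes with the most similar course over the 7 libraries were looked up among 8496 genes, as a description. These had a mean of at least 5 FPKM and a symbol that is not that of a clone, a predicted gene or a small RNA. For Hif1a these were Sh3d19, Fkbp10 and Slk, with a Pearson correlation of log2 values of 0.992, 0.989 and 0.989, and 556 genes exceeded 0.9. For Epas1 they were Tspan4 (0.998), Dnm3 (0.987) and Fam107a (0.985), and 109 genes exceeded 0.9. Egln1 was closest to Tmem20 (0.988), Efhd1 (0.985) and Rfk (0.981), and Egln3 to Arpc5l (0.988), Ckmt1 (0.982) and Rfk (0.981). Vhl was closest to Mkrn1 (0.978), Zdhhc13 (0.975) and Necap1 (0.959), with 44 genes above 0.9. All points share the split into 2 groups and the library scaling, so a high value arises for many genes that differ between the groups.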

How the data were processed

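The 7 RNA sequencing libraries, 3 wildtype and 4 mutant, were grouped by their sample titles. Per the labels' protocols, stranded libraries were made from oligo(dT)-selected RNA. The deposited values are FPKM, per the file headers. Tools listed in the submitters' processing notes, without roles, are RSEM 1.2.28, Bowtie2 2.3.4.1 and Trimmomatic 0.39, and the listed build is mm10. The annotation, strand setting and any scaling between libraries are not stated there.

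Unnamed entries, 429 of 27014 and 18.35 to 29.26% of the FPKM of a library, were dropped, and 27 repeated symbols were summed. The limma package (3.58.1, R 4.3.3) was fitted to log2(FPKM + 1) of genes whose mean reached 1 FPKM (empirical Bayes with an intensity trend, two-sided, Benjamini-Hochberg adjustment). The code was tested on simulated data. No depth can be stated in reads, so precision is given by replicate spread. Ratios were compared by exact permutation over 35 splits, whose smallest p is 0.0286. The genes and lists were chosen with earlier results of these data known. Named genes were the 10 chosen ones, the 3 tested genes of each pathway list with the smallest p, the 3 most similar genes, and cell type markers, and other called genes of the lists are named after their values were seen. A gene that this rule would name is not reported here, and the counts of its list include it. Riox1 alone of the pathway lists had no match. Coordinates are from GENCODE M21 (GRCm38, the same assembly as mm10), counted from 1.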

Additional observations from a re-analysis of the deposited data

Results flagged for a closer look

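Among 35 genes and ratios examined for a single mutant library far from the other 3, 2 stood out. The cutoff is one that any single gene or ratio passes by chance about 1 time in 20, so 2 of 35 can arise by chance. Per2, a circadian bHLH-PAS factor, was at 3.16 FPKM in mutant 4 and at 6.37 to 6.75 in the other mutants, and the wildtype libraries were at 2.94 to 3.97. Lrp2, a proximal tubule marker, was at 7.97 FPKM in mutant 3. None of the 10 HIF pathway genes was set apart in this way.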

How the results depend on the processing

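The higher count of the 9 tested genes was 2 or 3 with each library left out, 1 with a mean FPKM of at least 5 (Arnt2 is then not tested) and 0 after scaling on pan-endothelial markers, where 2 were lower. Epas1 (-0.19), Arnt (-0.22), Egln1 (-0.11), Siah1a (-0.063), Jmjd6 (-0.050), Kdm3a (-0.15) and Clock (-0.21) changed sign under that scaling. Hif1an, near 0, changed sign to 0.029 with the replicate block and 0.0020 without wildtype 3 and mutant 4 together, the last chosen after seeing the data, and ran from -0.052 to 0.029 with each library left out. Over all genes the higher count of 1176 became 576 after rescaling to the same total, 188 after endothelial scaling, 2258 with array weights, 261 with the replicate block, 343 without wildtype 3 and mutant 4, and 324 to 1205 with each library left out. The lower count of 985 became 3542 after endothelial scaling, 1812 with array weights, 423 with the block, 488 without those 2 libraries, and 521 to 1085 with each left out. Of all calls 54.4% were higher as deposited, 41.7% after rescaling to the same total, 41.6% after median-of-ratios scaling and 5.0% after endothelial scaling. The share with quantile normalization was 50.2%.

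For the ligase list, higher and lower counts were 1 higher after rescaling to the same total, 0 higher and 3 lower after endothelial scaling, 5 and 2 with array weights, 0 higher with the block and without wildtype 3 and mutant 4, and 1 lower with median-of-ratios scaling or no trend (1 to 3 higher with each library left out). For coactivators they were 2 higher with no filter, 0 higher after rescaling, with the block and without those 2 libraries, 0 and 9 after endothelial scaling, and 3 and 3 with array weights (1 to 2 higher with each left out). Other dioxygenases had 1 higher with a mean FPKM of at least 5, 3 and 2 with array weights, 10 lower after endothelial scaling, and 0 lower with the block and without those 2 libraries (0 to 1 higher with each left out). Other bHLH-PAS factors had 1 higher with array weights, with the block and without those 2 libraries, and 1 lower with no filter (0 to 1 higher with each left out). HIF target genes had 3 higher and 3 lower after endothelial scaling, 8 and 0 without those 2 libraries, 2 lower with array weights and 0 lower with the block (8 to 16 higher and 0 to 1 lower with each left out). The cause of these shifts was not tested.

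The replicate numbers were taken as a number only. Deviations from the group means correlated at -0.061, 0.026 and -0.281 for the same-numbered pairs 1 to 3, and the libraries did not each correlate best with their own number. With the block Hif1a (0.79, limma adjusted p = 0.0339) and Arnt2 (0.69, 0.0468) kept their calls. Only the mutant group has a replicate 4, so mutant 4 has no part in these fold changes. They equal those without mutant 4. The sign-flip test of the 3 same-numbered pairs is too small for any ratio to pass (smallest adjusted p = 0.333), and so is the permutation test with 1 library left out (smallest 0.133). With each library left out, the mutant minus wildtype difference in the log2 ratio of Epas1 to Hif1a ran from -0.68 to -0.50.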
